A study of Rattus norvegicus with 9 samples.

Results

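Ldha encodes the A subunit of lactate dehydrogenase, the enzyme that converts pyruvate to lactate and back at the end of glycolysis. When oxygen is short, this step regenerates NAD+ and lets glycolysis go on, and Ldha is a textbook target of hypoxia-inducible factor 1, which binds hypoxia response elements in promoters. In the brain, lactate dehydrogenase activity is linked to lactate exchange between astrocytes and neurons. N6-methyladenosine (m6A) is a modified base of mRNA that bears on its splicing, stability and translation.

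Ldha was followed by 1 probe, A_44_P210461, of the 50 with 10 spots and a name beginning with A_4. The rest of the 41186 transcript probes on the array were not searched for Ldha, so other probes of the gene may exist. A_44_P210461 was found as the probe whose name begins with A_4 and whose accession, NM_017025, belongs to rat Ldha (gene ID 24533, a protein-coding gene on chromosome 1). It was printed at 10 spots on every array. The gene was selected on measured values of these arrays, its differences between the groups being known when it was put forward, so all its levels and differences are given below as a description, with standard errors and intervals but no test. The gene table also lists 30 Ldha pseudogenes, which lie on 14 chromosomes. Neither the probe's sequence nor theirs was used here, so signal from transcripts of such copies cannot be told apart from that of Ldha.

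The arrays carried RNA from the ischemic-side cortex of 9 male Sprague Dawley rats, 8 weeks old at purchase, with 1 rat per array and 3 rats per group. In the model group the left middle cerebral artery was occluded with a filament for 2 h and reperfused (cerebral ischemia-reperfusion injury), and tissue was taken on day 7. The BHD group was operated on in the same way and given Buyang Huanwu Decoction (BHD), a herbal decoction, until day 7, at a dose that the sources used here do not state. The control group, called normal in the labels, had by the methods the operation without the filament, and all rats were of 1 strain with no genetic change named. No day of tissue collection was found for the control rats. RNA pulled down with an anti-m6A antibody (IP) was labelled with Cy5 and the RNA left in the supernatant (Sup) with Cy3, with no dye swap. The log2(IP/Sup) therefore holds any dye effect of the probe, which drops out of differences between groups only as far as it is the same on every array. Slide stands here and below for the arrays of 1 scan time, since no slide label was used, so the physical slides may differ. By scan time, slide 1 held all 3 controls beside model replicate 1, slide 2 the other model rats beside BHD replicates 1 and 2, and slide 3 BHD replicate 3 alone. Control and BHD rats thus shared no slide and were tied to each other within slides only through the model rats.

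The gene lists of this paragraph were searched only among the 50 probes with 10 spots and a name beginning with A_4. Other probes of the listed genes may exist on the array. Of the markers of cortical cell types, 2 of the 7 for neurons had a named probe among these, Map2, a microtubule protein of dendrites, and Dlg4, the postsynaptic scaffold PSD-95. On each of the 9 arrays, both exceeded background well in IP and in Sup. None of the markers listed for astrocytes, microglia, oligodendrocytes, endothelial cells or blood had one, so the cellular makeup of the samples was not followed here. Of 24 genes of glycolysis and lactate handling and 18 of the hypoxia response, Ldha was the only one in each list with such a probe. None of the 9 m6A writers, erasers and readers had one.

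The promoter window of Ldha is shown because the gene's known response to hypoxia rests on such elements, although the arrays measured RNA and nothing at this DNA. It is the RefSeq sequence of the 250 bases before the gene's start, at chr1:106507842-106508091 on the plus strand of GRCr8. Capitals mark the letters ACGTG, a core of the hypoxia response element, on either strand:
Ldha: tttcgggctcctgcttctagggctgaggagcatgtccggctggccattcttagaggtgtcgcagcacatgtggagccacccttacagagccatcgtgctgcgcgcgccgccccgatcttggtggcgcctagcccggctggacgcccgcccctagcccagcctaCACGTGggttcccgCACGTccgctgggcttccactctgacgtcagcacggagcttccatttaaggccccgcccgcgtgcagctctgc
ACGTG matched at 3 positions, counted on both strands, and the first 2 of them overlap in the palindrome CACGTG, which is also an E-box. These letters were found in 16.6% of the 33469 promoter windows of this length. The other form of the core, GCGTG, matched at 1 position and was found in 25.9% of the windows. These matches describe letters and are not evidence of binding.

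All 10 Ldha spots were well above background in both channels on every array, and none was saturated. Before any normalization the Ldha signal was stronger in Sup than in IP on every array. The mean spot intensity ran from 446 to 1249 in IP, against a local background of 15.0 to 17.3, and from 1214 to 2531 in Sup, against 13.0 to 15.9. Over all transcript probes the median intensity of an array ran from 53.0 to 83.5 in IP and from 48.0 to 60.0 in Sup.

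The IP signal, the log2 level of Ldha RNA in the m6A pull-down, differed little between the group means. It was 9.70, 10.15 and 8.80 in control replicates 1 to 3. In the model rats it was 9.39, 9.42 and 9.29, and in the BHD rats 9.21, 9.28 and 9.51. The control rats spanned the values of both other groups, so all 3 groups overlapped. The control mean was 9.55 ± 0.69 (SD, n = 3), the model mean 9.37 ± 0.06 and the BHD mean 9.33 ± 0.16.

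The Sup signal, the log2 level of Ldha RNA that was not pulled down, was lowest in the model group. It was 11.70, 11.66 and 10.41 in the control rats, 10.91, 10.54 and 10.62 in the model rats and 11.12, 11.14 and 11.13 in the BHD rats. Every BHD rat lay above every model rat, whereas control replicate 3 lay below all 8 other rats and made the control and model groups overlap. The means were 11.26 ± 0.73 (SD, n = 3) for control, 10.69 ± 0.20 for model and 11.13 ± 0.01 for BHD.

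**Figure D1:**
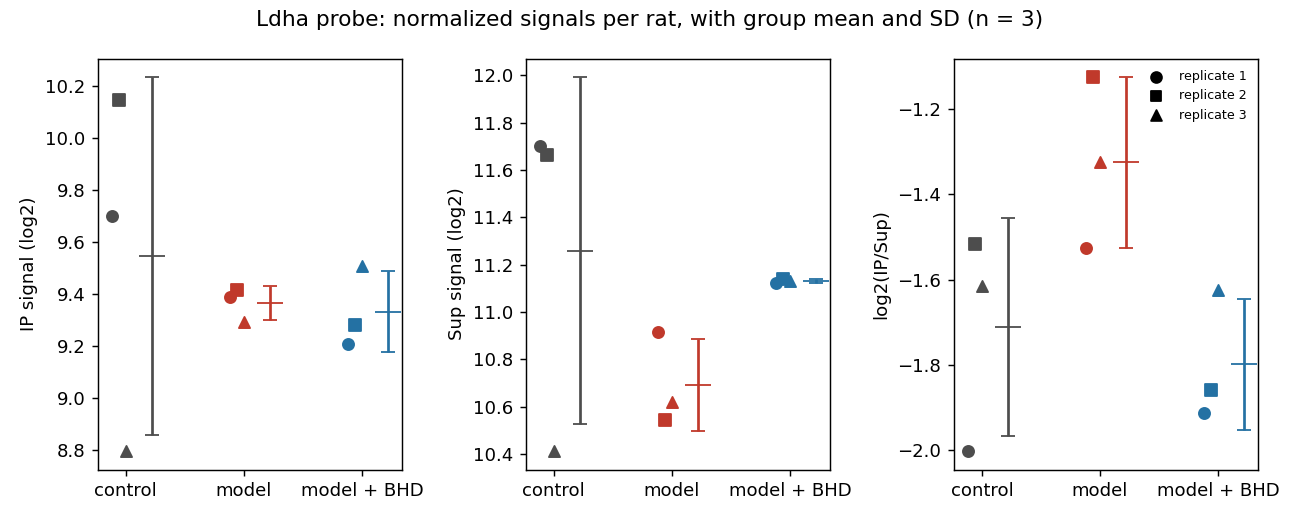
Normalized Ldha signals of each rat in the control, model and model + BHD groups, with IP signal (log2), Sup signal (log2) and log2(IP/Sup) on the y axes of the 3 panels. Symbols stand for replicates and bars for the group mean and SD (n = 3). The control rats spread widest in IP and Sup, the BHD rats lie above the model rats in Sup, and the model group has the highest mean log2(IP/Sup), −1.33.

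The log2(IP/Sup), taken as the relative m6A level, was negative on every array, and its group mean was highest in the model rats. It was −2.00, −1.52 and −1.62 in the control rats, −1.53, −1.13 and −1.32 in the model rats and −1.91, −1.86 and −1.62 in the BHD rats. Every BHD rat lay below every model rat. Control and model rats overlapped only through control replicate 2 and model replicate 1, while control and BHD rats were interleaved. The mean was −1.33 ± 0.20 (SD, n = 3) in the model group, −1.71 ± 0.26 in the control group and −1.80 ± 0.15 in the BHD group. In this order the model mean stood apart from the control mean by more than either SD, and the control and BHD means differed by less than either SD. As a share of the summed normalized signals, IP made up 28.6% ± 2.8 in the model group, 23.5% ± 3.1 in the control group and 22.4% ± 1.9 in the BHD group. These shares carry the dye effect and do not measure the fraction of methylated molecules.

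Between the model and control groups, the question was whether m6A on Ldha differed after ischemia-reperfusion. The log2(IP/Sup) of Ldha was higher in the model group by 0.39 (standard error 0.16, 95% interval −0.0017 to 0.77), or 1.31-fold. This stayed below the study's threshold of 1.5-fold that 2.42% of the 31640 tested probes passed in either direction, and the groups overlapped, whereas those of 8.32% of the 30331 probes with values on every array did not. A difference further from 0 than that of Ldha was seen for 8.41% of the tested probes, and the median over all of them was 0.0056. Between same-numbered rats the model value was higher by 0.48, 0.39 and 0.29. Over all probes, the deviations of their arrays correlated with r of 0.44, 0.14 and 0.33. These values were not compared with those of differently numbered rats, and no source says that a number pairs rats. With the replicate number as a block, the same mean difference had a standard error of 0.087 and a 95% interval of 0.17 to 0.61. Since Ldha was put forward with its differences known, neither interval is read as a test. The IP signal, where 2.58% of the probes passed 1.5-fold, differed by −0.18 (standard error 0.33, 95% interval −0.98 to 0.62) and the Sup signal by −0.57 (standard error 0.35, 95% interval −1.42 to 0.28). In Sup, where 2.00% of the probes passed 1.5-fold, Ldha was 0.675 times the control level, just inside that threshold. The summed signal, log2(IP + Sup), differed by −0.47 (standard error 0.35, 95% interval −1.32 to 0.38). In these normalized values, the higher ratio of the model group went with a lower Sup mean and not with a higher IP mean. Without normalization within arrays, the IP difference was −0.39 and the Sup difference −0.36. In these bulk samples, fewer cells of a type and less RNA per cell cannot be told apart. The size of these differences rested on the control rats. The Sup difference was −0.35 without control replicate 1, −0.37 without control replicate 2 and −0.99 without control replicate 3. Without control replicate 1 the log2(IP/Sup) difference was 0.24. The IP difference was −0.11, 0.12 and −0.56 without control replicates 1, 2 and 3.

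Within slide 1, which held the controls and model replicate 1, the log2(IP/Sup) difference was 0.19, the Sup difference −0.35 and the IP difference −0.16. Model replicates 2 and 3, on slide 2, lay above model replicate 1 by 0.30 in log2(IP/Sup) and below it by −0.33 in Sup. The direction in log2(IP/Sup) and in Sup was therefore the same within the slide, with a smaller size, from 1 model rat.

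Between the BHD and model groups, the question was whether Ldha differed with the treatment. The log2(IP/Sup) was lower in the BHD group by −0.47 (standard error 0.15, 95% interval −0.82 to −0.13), or 0.720 times the model level. This was inside 1.5-fold, which 4.04% of the 33132 tested probes passed, and the 2 groups did not overlap, as was the case for 16.5% of the 32205 probes with a value from every rat. The Sup signal was higher by 0.44 (standard error 0.31, 95% interval −0.27 to 1.15), or 1.36-fold, again without overlap, as for 14.6% of the probes, and 4.41% passed 1.5-fold. The IP signal differed by −0.03 (standard error 0.29, 95% interval −0.71 to 0.64), with overlapping groups, and 7.36% of the probes passed 1.5-fold. The total signal was higher by 0.32 (standard error 0.30, 95% interval −0.38 to 1.02), and its groups did not overlap, as for 21.9% of the probes. With each rat left out in turn, the log2(IP/Sup) difference ran from −0.57 to −0.37 and the Sup difference from 0.37 to 0.55. Within slide 2, the mean of BHD replicates 1 and 2 differed from that of model replicates 2 and 3 by −0.66 in log2(IP/Sup), 0.55 in Sup and −0.11 in IP. BHD replicate 3, alone on slide 3, lay 0.26 above the mean of the other BHD rats in log2(IP/Sup).

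Between the BHD and control groups, no readout of Ldha differed by more than the spread of the control rats. The difference was −0.09 in log2(IP/Sup) (standard error 0.15, 95% interval −0.43 to 0.26), −0.21 in IP (standard error 0.29, 95% interval −0.89 to 0.46) and −0.13 in Sup (standard error 0.31, 95% interval −0.84 to 0.58). The intervals of IP and Sup reached past 1.5-fold, so the levels were not shown to be alike. For comparison, 1.37% of 33018 probes passed 1.5-fold in log2(IP/Sup), 6.50% in IP and 8.01% in Sup, and the groups of 11.6% of the probes did not overlap in log2(IP/Sup). With the slide as a block, which joins these groups through the model rats, the log2(IP/Sup) difference was −0.47, and it was 0.01 without control replicate 2. The 3 comparisons share the same 9 arrays, and the opposite signs of the first 2 both use the model rats.

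The control rats spread more on Ldha than on most transcripts. The SD of the 3 control rats was 0.69 in IP and 0.73 in Sup, where the median probe had 0.11 and 0.10, and 1.85% and 1.04% of the probes had a larger SD. Control replicate 3 had a mean IP intensity of 518 and a mean Sup intensity of 1263 before normalization, against 981 and 1249 in IP and 2515 and 2531 in Sup for the other controls. Its median intensity over all probes, 74.0 in IP and 58.5 in Sup, was within the range of the other arrays. In log2(IP/Sup), from which a change common to both channels drops out, the control SD of Ldha was 0.26, and 16.6% of the probes had a larger one. At the other end, the SD of the BHD rats in Sup was 0.0082, and 99.6% of the probes varied more. Before normalization their mean Sup intensities were 2147, 2056 and 1465, so their closeness arose in the normalized values.

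The repeated spots showed the error between spots of an array, but not that of pull-down, labelling and hybridization, which these spots share. Spots marked as outliers were left out of the SD, which kept 8 to 10 spots per array. The SD between the spots of 1 array ran from 0.027 to 0.18 in log2(IP/Sup) and from 0.067 to 0.31 in the IP signal. The widest spread of ratios was on model replicates 2 and 3 and BHD replicate 3, at 0.18, 0.15 and 0.15. The spots followed a common pattern over the array. The spots in rows 128, 222, 255 and 286 lay above their array's mean in both channels on all 9 arrays, and those in rows 68, 360 and 454 lay below it in Sup on all 9. The scanner software marked 9 of the 90 spots as outliers, 5 on control arrays, 4 on model arrays and 0 on BHD arrays. All 9 were at 3 positions, rows 39, 68 and 360, and all were dimmer than their array's mean in both channels. Since these spots were left out, the BHD averages kept dim positions that some control and model arrays lost. With only the 7 positions that were marked on no array, a setting chosen after seeing the data, the log2(IP/Sup) difference was 0.40 between model and control and −0.50 between BHD and model. The Sup differences were then −0.56 and 0.46.

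**Figure D2:**
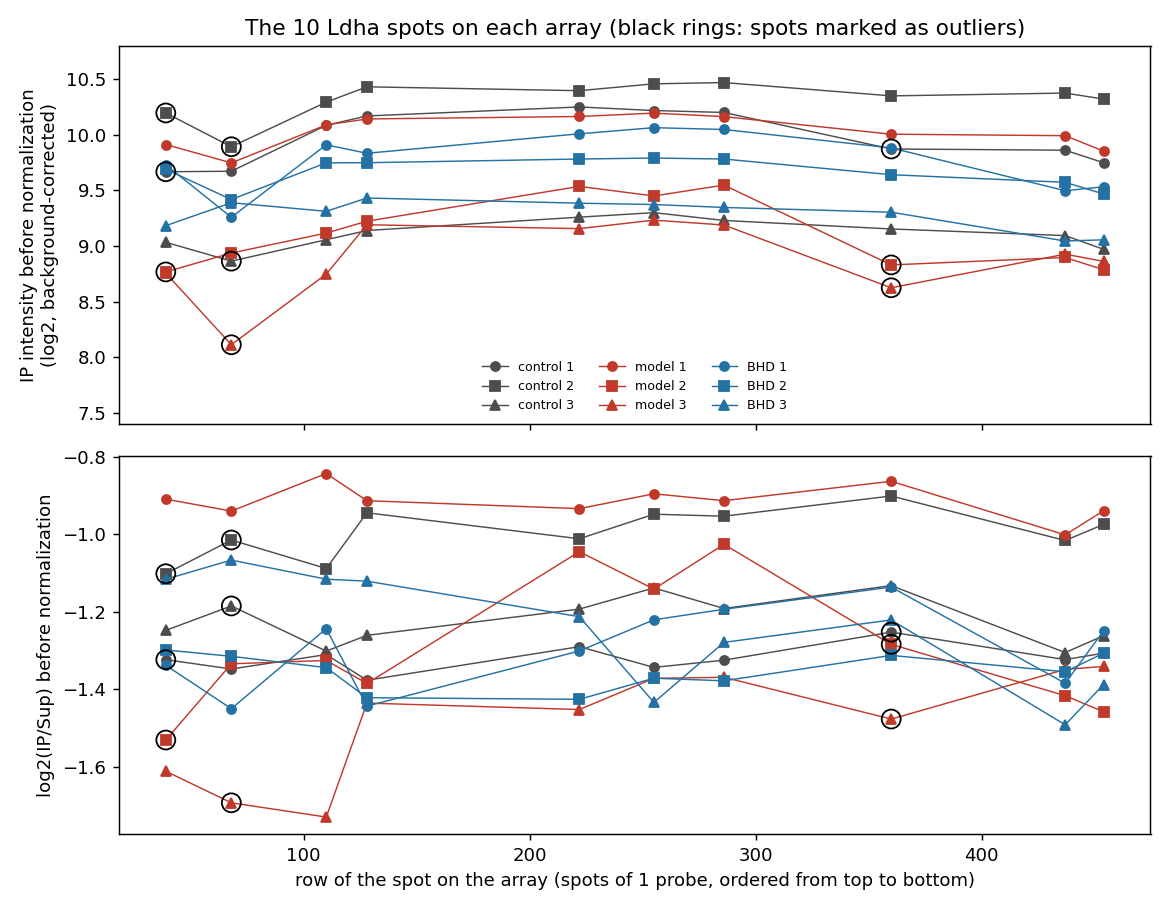
The 10 Ldha spots on each of the 9 arrays, by their row on the array (x axis), with the background-corrected IP intensity (log2) above and log2(IP/Sup) before normalization below. Lines join the spots of 1 array, colours stand for the groups and rings for the 9 marked spots. The spots in rows 128 to 286 are brighter than the mean of their array on all 9 arrays, and the rings fall on dim spots.

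The differences in log2(IP/Sup) depended on the normalization within arrays. Before it, the ratio of Ldha was −1.33, −0.98 and −1.23 in the control rats, −0.92, −1.27 and −1.46 in the model rats and −1.30, −1.35 and −1.24 in the BHD rats, and the groups overlapped. Loess lowered the ratio on 7 arrays, by −0.67 to −0.38, and raised it on model replicates 2 and 3, by 0.14 and 0.13. Model replicate 2 stood apart over all probes as well. The median log2(IP/Sup) of all tested probes was −1.11 on it before normalization, against 0.04 on model replicate 3 and 0.15 to 0.40 on the other 7 arrays. Ldha lay −0.15 from that median on model replicate 2, and −1.65 to −1.32 from it on the other 8 arrays. Without normalization within arrays the model rats differed from the controls by −0.035 in the ratio of Ldha, and the BHD rats from the model rats by −0.085. Taken relative to the median of its array, the ratio before normalization differed by 0.50 between model and control and by −0.57 between BHD and model. These 2 values rested on model replicate 2, without which they were 0.084 and −0.15. Without the same rat, the loess-normalized differences were 0.29 for model against control and −0.37 for BHD against model.

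**Figure D3:**
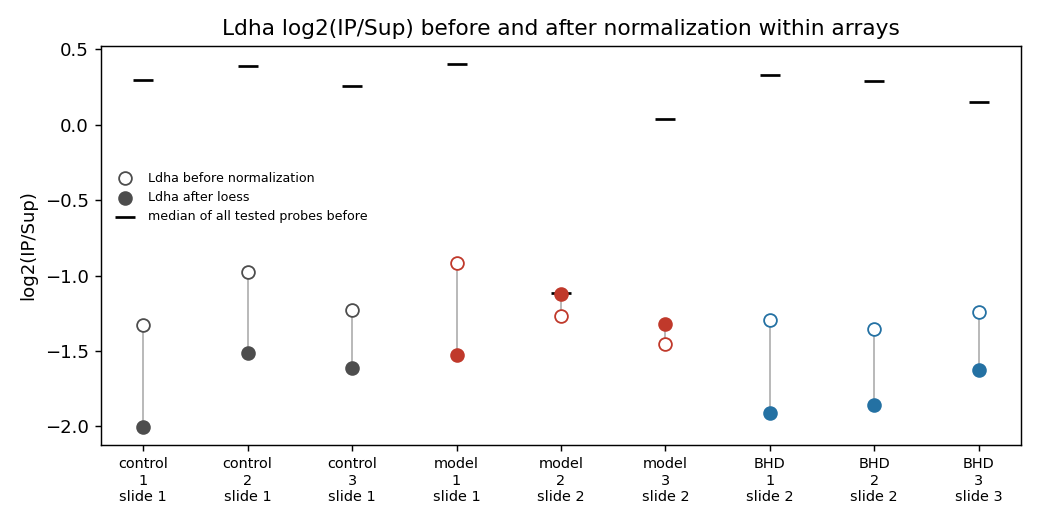
The log2(IP/Sup) of Ldha on each array before (open circles) and after (filled circles) loess normalization within arrays, with the median of all tested probes before normalization as a dash. The median is near 0 or above on 8 arrays and at −1.11 on model replicate 2, and loess moves Ldha up only on model replicates 2 and 3.

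Other mRNAs were compared with Ldha through the 50 probes of the same kind, with 10 spots each, of which 30 could be named and 21 of these exceeded background well in IP and in Sup on each of the 9 arrays. Among these 21 genes Ldha had the highest model minus control difference in log2(IP/Sup), where the lowest was −0.92 for Ppp2r2b and the median was −0.02. It also had the lowest BHD minus model difference, where the median was −0.04 and the highest was 0.61 for Ppp2r2b, a regulatory subunit of protein phosphatase 2A. In Sup it had the lowest model minus control difference, against a median of −0.04. In IP it lay near the middle, with 12 of the genes above it and 8 below. Both log2(IP/Sup) comparisons use the same model arrays. Ldha was put forward with its differences known, so its place at the ends of these rankings may follow from that choice and is no further support.

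The named genes whose profile over the 9 arrays, each centred on its own mean, lay nearest to that of Ldha were found by the root mean square difference. In log2(IP/Sup) they were Pop7, a subunit of ribonuclease P, with 0.09, Magoh, a core protein of the exon junction complex, with 0.14, and Ndfip1, an adaptor of Nedd4-family ubiquitin ligases, with 0.18. Their model minus control differences were 0.21, 0.13 and 0.11 and their BHD minus model differences −0.37, −0.38 and −0.36, against 0.39 and −0.47 for Ldha. In the IP signal the nearest were Dlg4 with 0.15, Trim2, a ubiquitin ligase, with 0.22 and Pdcd10, a vascular signalling adaptor, with 0.23. In Sup they were Dlg4 with 0.25, Ndfip2 with 0.28 and Med16, a Mediator subunit, with 0.35.

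The neuronal mRNA Dlg4 shared the low values of control replicate 3. Its Sup signal was 9.11, 9.34 and 8.34 in the control rats, 8.54, 8.67 and 8.48 in the model rats and 8.51, 8.54 and 8.66 in the BHD rats. Its mean differed by −0.36 between model and control, but by 0.01 between BHD and model, where Ldha differed by 0.44. The other neuronal marker, Map2, had Sup differences of −0.28 and −0.17, and its IP signal was lower in the model group by −0.42 and lower again in the BHD group by −0.43. The part of a changed neuronal content in the Ldha values was not tested.

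**Figure D4:**
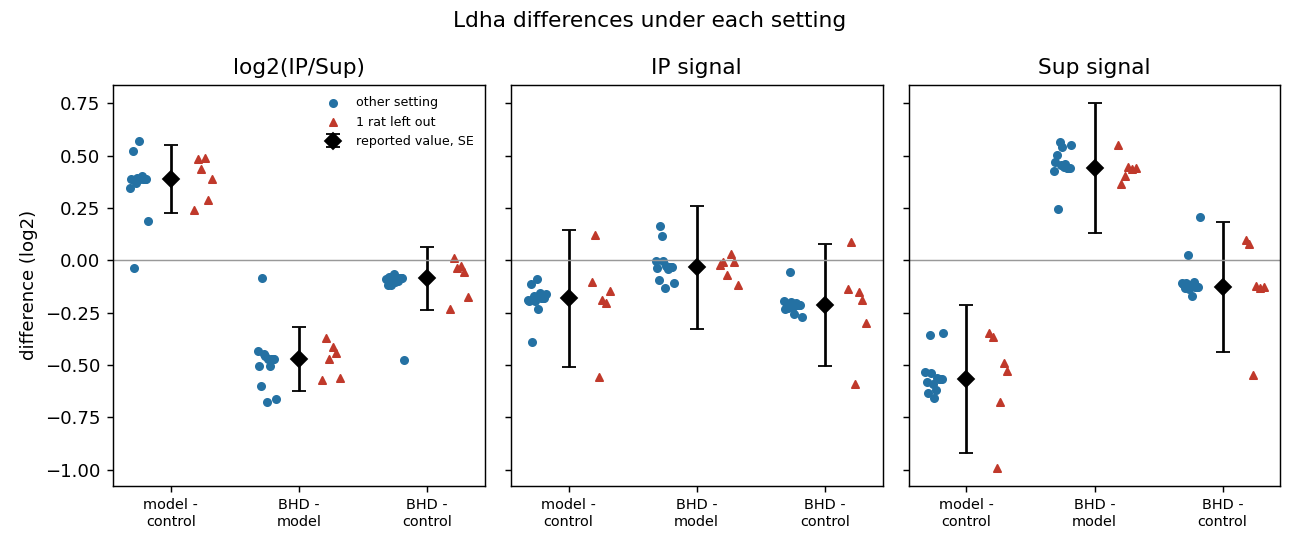
Differences of Ldha between groups (log2, y axis) in log2(IP/Sup), IP and Sup for the 3 comparisons on the x axis. Diamonds with bars are the reported value and its standard error, circles other settings and triangles values with 1 rat left out. The log2(IP/Sup) differences of 0.39 and −0.47 become −0.035, with the opposite sign, and −0.085 in 1 setting, without normalization within arrays, and the IP differences lie on both sides of 0.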

How the data were processed

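Each array's scanner file was made by the authors with Agilent Feature Extraction 11.0.1.1. The deposited intensity values for spots and their background are medians over pixels, not normalized, and the deposited processed intensity is background-subtracted and dye-normalized within the array. Per the file headers, 0 and 1 flags mark outlier, saturated and well-above-background spots. A deposited table of normalized log2 signals holds no probe of this kind and was not used.

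Median intensities were corrected by normexp (offset 50), control and outlier spots left out, arrays normalized by loess and repeated spots averaged. IP and Sup signals were then taken after quantile normalization of the average signal (Aquantile). Probes were tested if well above background in 1 channel or both on at least 3 arrays, and measured in at least 2 rats per group. Differences and moderated standard errors came from limma 3.58.1 (R 4.3.3), from 6 arrays for model against control and all 9 otherwise. Python 3.11.15, pandas 2.3.3 and matplotlib 3.10.9 made tables and figures. On simulated data, the 95% interval covered the true change of 193 of 200 changed probes for log2(IP/Sup) of model and control (31640 probes) and of 186 for the IP signal of BHD and model (33132 probes), the highest and lowest of 6 simulations. The simulation drew independent normal noise with each probe's own SD. It held no slide effect, array-wide shift or loess step, so the coverage does not speak to those. The precision is limited by the number of arrays.

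Ldha and the gene lists were chosen with earlier results of these data known. The rule named Ldha, listed genes with a probe of the same A_4 kind, and the 3 named probes with 10 spots nearest to Ldha in each readout. Gene names and the promoter came from RefSeq (GRCr8), and 30 of 50 accessions matched a symbol. The deviations of same-numbered control and model arrays correlated with r of 0.44, 0.14 and 0.33 across probes. Differently numbered arrays were not compared, and no source says what a number shares. For BHD and model arrays r was 0.60, 0.04 and 0.26, and for BHD and control arrays 0.40, 0.31 and 0.18.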

Additional observations from a re-analysis of the deposited data

How the results depend on the processing

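Over 9 differences (3 comparisons in log2(IP/Sup), IP and Sup) and the 13 other settings run for each, 109 of 117 values moved by less than the SD between rats. This count was partly fixed in advance. The filter on dim probes, the choice of arrays in the fit and the replicate block leave a difference as it is. Leaving out the quantile step between arrays likewise leaves the log2(IP/Sup) differences as they are. The SD was also wide in places. For Sup of BHD against control it was 0.52, so 0.21 with the slide as a block, against −0.13, counted as not moved. Without normalization within arrays, log2(IP/Sup) differed by −0.035 for model against control and −0.085 for BHD against model, and for the latter the IP difference was 0.16 and the Sup difference 0.25. With the slide as a block, log2(IP/Sup) differed by −0.66 for BHD against model and −0.47 for BHD against control. Spike-in scaling, chosen after seeing the data, gave −0.68 for BHD against model, and keeping the outlier spots an IP difference of 0.12. The IP difference for BHD against model, −0.03, and the Sup difference for BHD against control, −0.13, each changed sign in 2 settings, and the cause was not tested.

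Leaving out each rat in turn gave, for model against control, 0.24 to 0.49 in log2(IP/Sup), −0.56 to 0.12 in IP and −0.99 to −0.35 in Sup. For BHD against model it gave −0.57 to −0.37, −0.12 to 0.03 and 0.37 to 0.55. For BHD against control it gave −0.23 to 0.01, −0.59 to 0.09 and −0.55 to 0.09. The replicate block left all 9 differences as they were, such as 0.39 in log2(IP/Sup) for model against control, with a standard error of 0.087 in place of 0.16 and a 95% interval of 0.17 to 0.61 that no longer held 0. For the other 8 differences the interval lay on the same side of 0, or held 0, with and without the block. The alternative on the deposited table was not run, since it holds no probe of the A_4 kind used for Ldha. With 3 rats a group, and 1 probe that may also bind copies of the gene, the standard errors of IP and Sup, 0.29 to 0.35, left changes of 1.5-fold and somewhat more unresolved.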
